A study of Danio rerio with 9 samples.

Results

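In every kdm4aa knockout library of zebrafish embryos, 54 genes held at most 1/16 of their mean wild-type RNA level. Replicates 1 and 3 of a kdm4ab knockout kept more than 1/4 of it. The 54 are called lost below, though 36 of them kept more than 3 counts over the 3 kdm4aa knockout libraries. These genes were chosen by their levels among 32520 counted genes. A level here is in CPM, a gene's counts per 1000000 counts of its library, not scaled to gene length, so ranks by CPM are ranks of counts and not of transcripts. Each chosen gene had at least 1 CPM in all 3 wild-type libraries, and each of the 3 kdm4aa knockout libraries held at most 1/16 of the wild-type mean. Replicates 1 and 3 of the kdm4ab knockout each held more than 1/4 of that mean. Replicate 2 of the kdm4ab knockout played no part in the choice, and 2 further genes that met the limits are not counted. The groups were embryos with the genotype kdm4aa knockout, embryos with the genotype kdm4ab knockout and wild-type (WT) embryos, with 3 libraries each. The stage, the strain, the knockout alleles and whether embryos were pooled were in none of the sources used here (not given). The study looked for genes downstream of kdm4aa in embryos that developed late and had more dying cells.

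The products of kdm4aa and kdm4ab belong to the KDM4 family of histone demethylases. In vertebrates these enzymes remove methyl groups from lysines of histone H3, among them the lysine whose methylation marks silent heterochromatin and another that is methylated along transcribed genes. An early fish embryo runs first on RNA that the mother placed in the egg and then on RNA of its own genome, and the counts do not tell one from the other. In whole embryos fewer cells of a type and less RNA per cell cannot be told apart.

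Library totals ran from 27894551 to 46156237 counts. Replicate 2 of the kdm4ab knockout had the lowest total and stood apart, with 14247 genes holding a count against 22025 to 23019 in the other 8 libraries, so it is given separately throughout. The transcript of kdm4ab was at 2.56 and 2.33 CPM in kdm4ab knockout replicates 1 and 3 and at 0 in replicate 2, against 121 to 169 CPM in WT. That replicate 2 library also lacked any count of kdm4aa, for which replicates 1 and 3 held 14.99 and 16.6 CPM. Its 0 for kdm4ab therefore does not check its label. The transcript of kdm4aa was at 14.3 to 16.8 CPM in the kdm4aa knockout, against 17.5 to 20.6 CPM in WT (log2 difference −0.19, Benjamini-Hochberg adjusted p 0.204 in edgeR's quasi-likelihood F-test), so its level does not check the kdm4aa labels. Markers of the embryo were present, though not level between groups. The 6 epidermal markers summed to 453.0 to 487 CPM in the kdm4aa knockout, 891 to 1013 CPM in kdm4ab knockout replicates 1 and 3, and 886 to 989 CPM in WT. Most of that sum was epcam, with means of 263 CPM in the kdm4aa knockout, 902 CPM in those kdm4ab libraries and 535 CPM in WT. In edgeR's fit of 8 libraries all 6 were called lower in the kdm4aa knockout, and in the kdm4ab knockout epcam was called higher and the other 5 lower. Among them krt4 averaged 82.9 CPM in the kdm4aa knockout, 9.06 CPM in the kdm4ab knockout and 180.5 CPM in WT. With 9 libraries krt4 and TP63 alone kept the call in the kdm4aa knockout, and all 6 kept it in the kdm4ab knockout. The 4 neural markers summed to 228 to 277 CPM in the kdm4aa knockout, 142 to 159 CPM in those 2 kdm4ab libraries, and 242 to 319 CPM in WT. Most of that sum was SOX3 and sox19a. In the 8-library fit sox19a and ELAVL3 were called lower in the kdm4aa knockout, and SOX2 and SOX3 were not called. ELAVL3 averaged 0.887 CPM there, against 2.12 CPM in WT (edgeR adjusted p 0.0101). Neither call held with 9 libraries. Of the 3 germ cell markers, DDX4 averaged 323 CPM in the kdm4aa knockout, 291 CPM in the same kdm4ab libraries and 347 CPM in WT. NANOS3 averaged 30.6 CPM in the kdm4aa knockout, 19.7 CPM in the kdm4ab knockout and 8.77 CPM in WT (kdm4aa against WT log2 1.87, edgeR adjusted p 1.33e-08), and DND1 averaged 59.5 CPM in the kdm4aa knockout, 34.8 CPM in the kdm4ab knockout and 21.9 CPM in WT (log2 1.5, edgeR adjusted p 8.30e-10). NANOS3 and DND1 were also called higher in the kdm4aa knockout with 9 libraries. The 4 muscle markers stayed under 1 CPM in sum in every library. Of the blood and endothelium markers only kdrl was called lower in the kdm4aa knockout. It averaged 0.697 CPM there, against 1.66 CPM in WT (edgeR adjusted p 0.0182, and 0.609 with 9 libraries). In kdm4ab replicates 1 and 3 the notochord markers tbxta and noto averaged 1.75 and 7.89 CPM, against 22.6 and 35.4 CPM in WT. The endoderm marker sox32 averaged 0.120 CPM in those libraries, against 2.30 CPM in WT. The part of such differences in the levels below was not tested. Nothing in the labels says that replicates came from separate clutches, so each p-value reflects the spread among these libraries and nothing wider, and that spread may be technical.

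Summed over the 54 genes, the kdm4aa knockout held 17.5 to 22.6 CPM, kdm4ab knockout replicates 1 and 3 held 566.8 and 578.3 CPM, and WT held 591 to 598 CPM. In replicate 2 of the kdm4ab knockout the sum was 358 CPM. Most of the genes had few counts in WT. Their WT means ran from 1.26 to 136 CPM with a median of 4.34, whereas the median over all 13988 genes with at least 1 CPM in every WT library was 23.3 CPM. Of the 54 genes, 33 (61.1%) had a WT mean under 5 CPM, against 20.9% of those 13988 genes, and 17 lay at 5 to 20 CPM and 4 above. In the kdm4aa knockout 9 genes had no count in any of the 3 libraries, 9 had 1 to 3 counts in all, and 36 had more. All 54 passed the filter on low counts and all 54 were called lower in the kdm4aa knockout, where 23.5% of the 19882 genes tested were called lower and 46.8% were called in either direction. For each of the 54 all kdm4aa libraries lay below all WT libraries, as they did for 36.6% of the 13988 genes. The choice of genes used this contrast, so nothing is read from these counts.

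**Figure D1:**
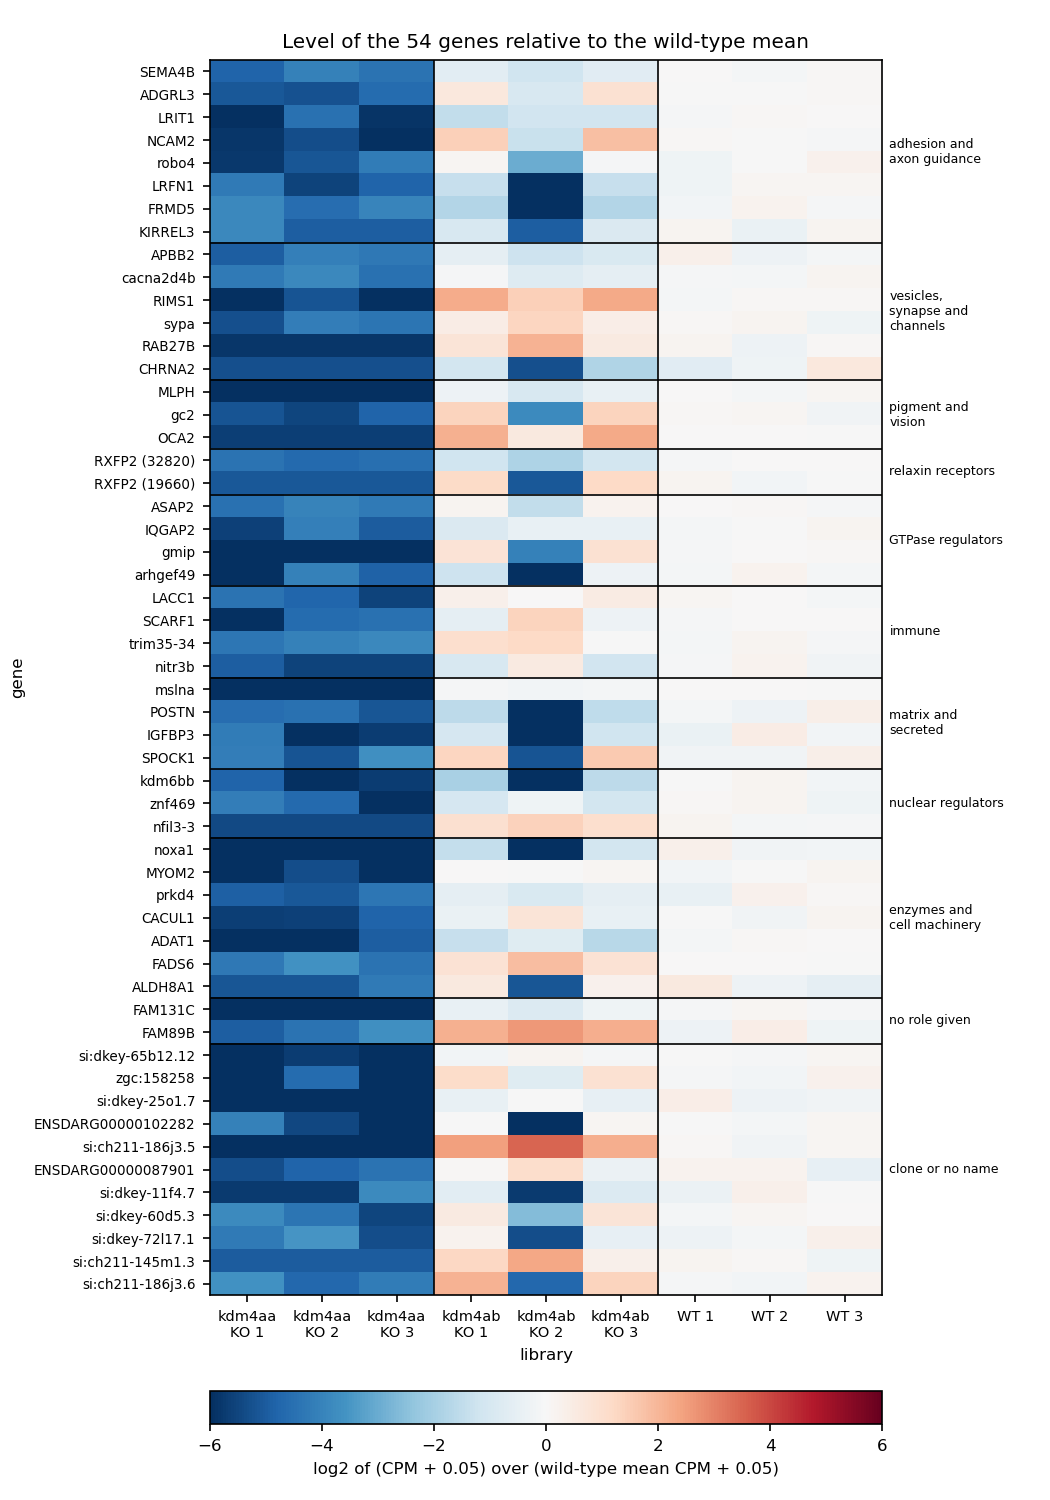
Heat map of the level of each of the 54 genes (down the page, grouped by role) in each of the 9 libraries (across), as log2 of its CPM over the WT mean, with 0.05 CPM added to both and colours clipped at both ends. The kdm4aa knockout columns are low for every gene, as the choice of genes fixed, and kdm4ab knockout replicate 2 is mixed, with 16 genes that had no count there.

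The 43 genes with an informative symbol were sorted into broad roles, without pathway annotation. Roles were not counted over all genes, so neither spread nor concentration is read from these numbers, and some genes would suit more than 1 role. By textbook role, 8 encode proteins of cell adhesion and axon guidance, 6 belong to vesicles, synapses and channels, 3 to pigment and vision, 2 are relaxin receptors, 4 regulate small GTPases, 4 are immune genes, 4 encode matrix or secreted proteins, 3 are nuclear regulators and 7 are enzymes or parts of cell machinery. FAM131C and FAM89B are given no role, and 11 genes carry a clone name or none. This grouping was made after the genes were known, and so was the naming of members beyond the 20 most abundant, the RXFP2 receptors, the runs and the genes nearest the limit. Roles are those known from mammals unless stated. For 10 of the genes the symbol is carried by more than 1 zebrafish identifier, so for these the paralog meant is uncertain.

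Among the adhesion and guidance genes, SEMA4B (ENSDARG00000076104), a membrane-bound semaphorin, had the highest WT level of the 54. It stood at 4.78, 8.22 and 6.29 CPM in the kdm4aa knockout, at 87.8, 59.5 and 84.5 CPM in replicates 1, 2 and 3 of the kdm4ab knockout, and at 139, 127 and 142 CPM in WT. The kdm4aa libraries averaged 4.72% of the WT mean, and the 3 groups did not overlap. ADGRL3 (ENSDARG00000061121), a latrophilin, an adhesion receptor that spans synapses, was at 0.543, 0.495 and 0.769 CPM in the kdm4aa knockout, at 31.7, 10.4 and 37.6 CPM in the kdm4ab knockout, and at 19.7, 19.8 and 20.8 CPM in WT. Here kdm4ab replicates 1 and 3 lay above WT and replicate 2 below it.

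NCAM2 (ENSDARG00000017466), a neural cell adhesion molecule of the immunoglobulin type, was at 0.109, 0.175 and 0.0226 CPM in the kdm4aa knockout. It had 24.5, 3.58 and 31.2 CPM in the kdm4ab knockout and 9.57, 8.91 and 8.48 CPM in WT, so that the knockouts lay on opposite sides of WT except for kdm4ab replicate 2. The receptor gene robo4, known from blood vessels, had 0.109, 0.204 and 0.430 CPM in kdm4aa knockout embryos, 9.53, 1.08 and 8.40 CPM in the kdm4ab knockout and 7.22, 8.54 and 10.4 CPM in WT. Replicates 1 and 3 of the kdm4ab knockout fell within the WT range for robo4. LRIT1 (ENSDARG00000099406), a leucine-rich repeat protein of photoreceptor synapses, had 0.0543, 0.379 and 0.113 CPM in kdm4aa knockout embryos, 3.38, 4.23 and 4.18 CPM in the kdm4ab knockout and 9.12, 9.79 and 9.47 CPM in WT. LRFN1, another leucine-rich repeat protein of synapses, had 0.217, 0.0583 and 0.136 CPM in kdm4aa knockout embryos, 1.93, 0 and 1.90 CPM in the kdm4ab knockout and 4.17, 5.51 and 5.50 CPM in WT. Apart from replicate 2 of the kdm4ab knockout for LRFN1, both genes had the kdm4aa knockout lowest, the kdm4ab knockout between and WT highest. The remaining adhesion genes were FRMD5 (ENSDARG00000079622), which encodes a FERM domain protein, and KIRREL3 (ENSDARG00000113833), an immunoglobulin-type adhesion gene. They were at or under 0.272 CPM in every kdm4aa library and averaged 4.67 CPM for FRMD5 and 1.49 CPM for KIRREL3 in WT. In the kdm4ab knockout FRMD5 had 1.36, 0 and 1.36 CPM and KIRREL3 had 0.737, 0 and 0.794 CPM, below WT.

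Of the vesicle, synapse and channel genes, RIMS1 (ENSDARG00000074680) encodes a scaffold of the presynaptic active zone. It was at 0, 0.0583 and 0 CPM in the kdm4aa knockout, at 18.2, 10.6 and 19.0 CPM in the kdm4ab knockout and at 3.60, 4.02 and 4.02 CPM in WT. The WT rate was 224 times the kdm4aa rate, with an exact 95% interval of 61.7 to 1856 that covers counting error only, and all 3 kdm4ab libraries lay above all of WT. RAB27B, a small GTPase that docks secretory vesicles, had no count in the kdm4aa knockout, 4.83, 12.1 and 4.10 CPM in the kdm4ab knockout and 3.18, 2.31 and 2.98 CPM in WT. Against a floor of 3 counts in each kdm4aa library, RAB27B was at least 35.8-fold lower there. The synaptic vesicle gene sypa averaged 0.0780 ± 0.0460 CPM in the kdm4aa knockout, against 2.93 ± 0.426 CPM in WT (SD, n = 3 each). The calcium channel subunit gene cacna2d4b averaged 0.177 ± 0.0503 CPM in the kdm4aa knockout, against 4.04 ± 0.391 CPM in WT. The other genes of this group were APBB2, an adaptor that binds the amyloid precursor protein, and CHRNA2 (ENSDARG00000057025), a nicotinic receptor subunit. APBB2 averaged 0.182 CPM in the kdm4aa knockout, against 4.84 CPM in WT. CHRNA2 had no count in the kdm4aa knockout and 1.16, 1.56 and 2.94 CPM in WT. In the kdm4ab knockout APBB2 had 3.31, 2.04 and 2.56 CPM and CHRNA2 had 0.845, 0 and 0.512 CPM, below WT.

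The pigment and vision genes were MLPH, OCA2 and gc2. MLPH encodes melanophilin, which ties Rab27-coated melanosomes to a myosin motor. It was at 0.0543, 0 and 0 CPM in the kdm4aa knockout, at 9.92, 6.13 and 8.76 CPM in the kdm4ab knockout and at 12.2, 11.1 and 12.9 CPM in WT, a ratio of WT to kdm4aa rates of 699 (exact 95% interval 193 to 5778). OCA2, a melanosome membrane protein, had no count in the kdm4aa knockout, 10.9, 3.73 and 12.2 CPM in the kdm4ab knockout and 2.47, 2.52 and 2.38 CPM in WT, so it was at least 31.1-fold lower in the kdm4aa knockout. The retinal guanylyl cyclase gene gc2 had 0.163, 0.117 and 0.226 CPM in kdm4aa knockout embryos, 19.4, 0.502 and 19.5 CPM in the kdm4ab knockout and 8.11, 8.15 and 6.64 CPM in WT. For OCA2 and gc2 replicates 1 and 3 of the kdm4ab knockout lay above WT, and for MLPH they lay below it. The 3 pigment markers dct, tyr and pmela were not lower in sum in the kdm4aa knockout. They summed to 6.38 to 7.22 CPM there, 7.73, 13.5 and 6.51 CPM in the kdm4ab knockout, and 5.40 to 7.74 CPM in WT. In kdm4ab replicates 1 and 3 dct averaged 4.43 CPM, against 1.77 CPM in WT (edgeR adjusted p 0.00194). The level of tyr averaged 2.69 CPM in those libraries, against 4.95 CPM in WT (edgeR adjusted p 0.00147), so these 2 markers moved in opposite directions.

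A pair of relaxin receptor genes carries the symbol RXFP2. In mammals this receptor binds insulin-like peptide 3 and relaxin. The more abundant one (ENSDARG00000032820) was at 3.64, 3.12 and 3.41 CPM in the kdm4aa knockout, at 34.3, 22.0 and 36.8 CPM in the kdm4ab knockout and at 75.6, 81.2 and 80.5 CPM in WT, with no overlap among the groups. The other one (ENSDARG00000019660) had no count in the kdm4aa knockout, 3.66, 0 and 3.82 CPM in the kdm4ab knockout and 1.80, 1.45 and 1.61 CPM in WT. They lie on chromosomes 10 and 15, and their order between the kdm4ab knockout and WT was opposite in replicates 1 and 3.

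The regulators of small GTPases included ASAP2 (ENSDARG00000010181), which switches off Arf GTPases and was the second most abundant gene of the 54. It was at 4.48, 6.21 and 5.34 CPM in the kdm4aa knockout, at 112, 36.2 and 118 CPM in the kdm4ab knockout and at 103, 104 and 95.4 CPM in WT. Only replicate 2 of the kdm4ab knockout was below WT. The gene gmip had 0, 0.0583 and 0 CPM in kdm4aa knockout embryos, 18.5, 0.574 and 19.4 CPM in the kdm4ab knockout and 9.72, 10.4 and 10.8 CPM in WT. Its WT rate was 595 times the kdm4aa rate (exact 95% interval 164 to 4916). The scaffold gene IQGAP2 averaged 0.329 ± 0.202 CPM in the kdm4aa knockout, against 10.3 ± 0.999 CPM in WT. The gene arhgef49 averaged 0.115 ± 0.117 CPM in the kdm4aa knockout, against 4.70 ± 0.604 CPM in WT (SD, n = 3 each).

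Of the 4 immune genes, nitr3b encodes a receptor of the NITR family, immunoglobulin-type receptors of bony fish. It was at 0.0272, 0 and 0 CPM in the kdm4aa knockout, at 1.15, 3.37 and 1.02 CPM in the kdm4ab knockout and at 2.22, 2.67 and 2.01 CPM in WT. LACC1, a macrophage enzyme, averaged 0.108 CPM in the kdm4aa knockout, against 4.47 CPM in WT, and SCARF1, a scavenger receptor, averaged 0.0841 CPM in the kdm4aa knockout, against 4.02 CPM in WT. The ubiquitin ligase family gene trim35-34 averaged 0.171 CPM in the kdm4aa knockout, against 3.70 CPM in WT. The immune cell markers lyz and coro1a summed to 0.950 to 1.81 CPM in the kdm4aa knockout, against 0.486 to 0.986 CPM in WT, and lyz itself had no count in any library.

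Among secreted and matrix proteins, the mesothelin-like gene mslna showed the widest measured ratio of the 54. It had 0, 0 and 0.0226 CPM in kdm4aa knockout embryos, 6.69, 6.42 and 6.56 CPM in the kdm4ab knockout and 7.27, 7.14 and 6.89 CPM in WT. The 0.0226 CPM is 1 count, and the ratio of WT to kdm4aa rates was 818 (exact 95% interval 146 to 32359). All 3 kdm4ab libraries, replicate 2 included, lay between 6.42 and 6.69 CPM, below every WT library. The matrix gene POSTN (periostin) averaged 0.143 CPM in the kdm4aa knockout, against 4.93 CPM in WT. IGFBP3, which binds insulin-like growth factors, averaged 0.0875 CPM in the kdm4aa knockout, against 4.81 CPM in WT. SPOCK1, a testican proteoglycan, averaged 0.0482 CPM in the kdm4aa knockout, against 1.78 CPM in WT. In the kdm4ab knockout POSTN had 1.60, 0 and 1.69 CPM and IGFBP3 had 2.36, 0 and 2.05 CPM, below WT. SPOCK1 had 4.42, 0 and 5.38 CPM there, above WT in replicates 1 and 3.

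The nuclear regulators included kdm6bb, a histone H3 demethylase of the KDM6 family, which acts on the lysine methylated by Polycomb complexes. It was at 0.434, 0.0583 and 0.203 CPM in the kdm4aa knockout, at 3.40, 0 and 4.43 CPM in the kdm4ab knockout and at 13.1, 14.9 and 11.9 CPM in WT. Apart from kdm4ab replicate 2 the groups did not overlap, and the kdm4ab level was the one nearest to the lower limit of the choice, at 25.6% of the WT mean in replicate 1. The zinc finger gene znf469 had 0.597, 0.408 and 0.0678 CPM in kdm4aa knockout embryos, 5.61, 9.64 and 5.38 CPM in the kdm4ab knockout and 12.2, 12.6 and 9.54 CPM in WT. The leucine zipper gene nfil3-3, related to a circadian and immune transcription factor of mammals, had no count in the kdm4aa knockout, 4.18, 5.66 and 4.33 CPM in the kdm4ab knockout and 2.37, 1.92 and 2.03 CPM in WT. For nfil3-3 all 3 kdm4ab libraries were above WT.

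Enzymes and cell machinery made up a mixed group. The NADPH oxidase activator noxa1 had 0.0543, 0 and 0 CPM in kdm4aa knockout embryos, 4.18, 0 and 5.30 CPM in the kdm4ab knockout and 13.9, 9.95 and 10.2 CPM in WT (ratio of WT to kdm4aa rates 654, exact 95% interval 181 to 5407). MYOM2, which encodes a protein of the sarcomere M-band, had 0, 0.117 and 0.0452 CPM in kdm4aa knockout embryos, 6.67, 6.49 and 7.12 CPM in the kdm4ab knockout and 5.82, 6.44 and 7.35 CPM in WT, with the last 2 groups overlapping. The muscle markers given above were at or near 0 in all groups. Among them actc1b alone had a count in WT, with 0.173, 0.545 and 0.486 CPM, so MYOM2 was well above them there. The kinase gene prkd4 averaged 0.159 CPM in the kdm4aa knockout, against 5.55 CPM in WT, and CACUL1, a protein with a cullin domain, averaged 0.0827 CPM in the kdm4aa knockout, against 5.17 CPM in WT. ADAT1, a tRNA deaminase, FADS6, a fatty acid desaturase, and ALDH8A1, an aldehyde dehydrogenase, stayed at or under 0.117 CPM in every kdm4aa library. Their WT means were 4.21, 2.01 and 1.73 CPM. Over kdm4ab knockout replicates 1 and 3 they averaged 1.43, 3.70 and 2.36 CPM, so ADAT1 was below its WT mean there.

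FAM131C had the highest WT level of the 9 genes with no count in the kdm4aa knockout. It had 11.2, 8.64 and 12.6 CPM in the kdm4ab knockout and 14.5, 16.3 and 14.5 CPM in WT, and it was at least 191-fold lower in the kdm4aa knockout. FAM89B had 0.0272, 0.0583 and 0.136 CPM in kdm4aa knockout embryos, 10.5, 14.2 and 10.6 CPM in the kdm4ab knockout and 1.90, 3.12 and 1.94 CPM in WT, so all kdm4ab libraries were above WT. The 11 genes with a clone name or none had WT means of 1.26 to 8.66 CPM, and 3 of them, si:dkey-25o1.7, si:ch211-186j3.5 and si:ch211-145m1.3, had no count in the kdm4aa knockout. The most abundant of the 11, si:dkey-65b12.12, averaged 0.0780 CPM in the kdm4aa knockout, against 8.66 CPM in WT.

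The levels of these genes in the kdm4ab knockout lay on both sides of WT. The mean of replicates 1 and 3 over the WT mean ran from 0.292 for FRMD5 to 5.07 for si:ch211-186j3.5, with a median of 0.929. Both kdm4ab libraries lay above all of WT for 20 genes, where 40.5% of the 13988 genes with at least 1 CPM in WT did so, and below all of WT for 25 genes, where 31.4% did. For the remaining 9 the groups overlapped. In edgeR's quasi-likelihood fit of 8 libraries, 16 of the 54 were called lower and 14 higher in the kdm4ab knockout, beside 24.2% and 25.3% of all 19882 genes tested (49.5% in either direction). With replicate 2 added to the fit, 5 of the 54 were called in either direction, beside 17.0% of 18998 genes. The limit on kdm4ab levels used the same libraries, so these counts describe the set and test nothing.

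Replicate 2 of the kdm4ab knockout is the library that the choice did not use. In it, 34 of the 54 genes exceeded 1/4 of the WT mean, 4 had a count but lay at or under 1/4, and 16 had no count. Among the 13118 other genes that met the same WT and kdm4ab limits, 81.8% exceeded 1/4 in this library and 9.04% had no count. Part of that gap goes with level. Of the 33 chosen genes under 5 CPM in WT, 39.4% had no count in replicate 2, against 31.95% of the other genes at that level. Of the 21 at 5 CPM or more, 3 (14.3%) had none, against 3.69%. Those 3 were kdm6bb, noxa1 and LRFN1, and the 4 with a count at or under 1/4 of WT were robo4, gmip, gc2 and si:dkey-60d5.3. Other genes stood higher in replicate 2 than in replicates 1 and 3, among them SCARF1, with 10.4 CPM against 2.77 and 3.28 CPM, and RAB27B, with 12.1 CPM against 4.83 and 4.10 CPM. Whether the absent genes were unexpressed or missed in this library was not tested.

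**Figure D2:**
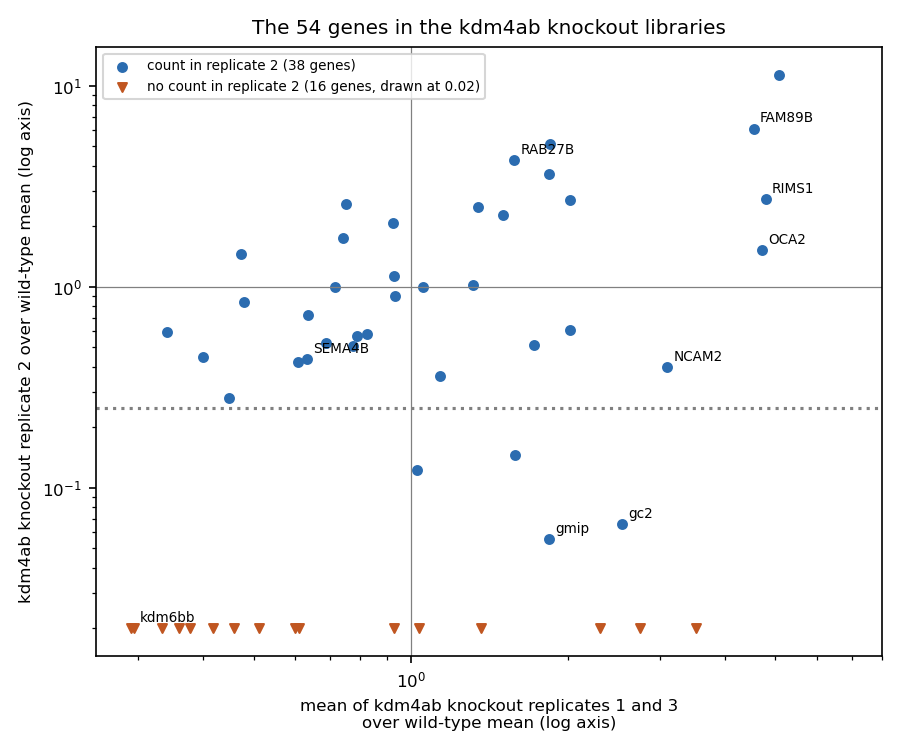
Scatter plot of the level of the 54 genes in kdm4ab knockout replicate 2 (vertical, over the WT mean, log axis) against the mean of replicates 1 and 3 (horizontal, over the WT mean, log axis). The 38 genes with a count in replicate 2 scatter widely, and the 16 with none are drawn at the foot.

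Relatives of the lost genes were followed to see whether whole families were affected. The 25 families with a lost gene, defined by symbol stem once the lost genes were known, held 104 other tested genes. These relatives played no part in the choice. In edgeR's quasi-likelihood test on 8 libraries, 42 of the 104 (40.4%) were called lower in the kdm4aa knockout and 23 (22.1%) higher, beside 23.5% and 23.3% of all genes tested. Their median log2 difference was −0.36, and that of all genes was −0.00. With kdm4ab replicate 2 in the fit, 8 of the 94 tested were called lower and 3 higher, beside 4.55% and 4.33% of all genes. Families are counted here with no test of the whole list.

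The calcium channel subunit family CACNA2D moved together: all 5 tested relatives of cacna2d4b were called lower in the 8-library fit and none in the fit of 9. CACNA2D3 (ENSDARG00000078760) had 0.760, 0.670 and 0.995 CPM in the kdm4aa knockout and 4.76, 7.27 and 6.36 CPM in WT (log2 −2.84, SE 0.238, edgeR adjusted p 4.02e-08, and 0.243 with 9 libraries). CACNA2D1 averaged 5.84 ± 0.376 CPM in the kdm4aa knockout, against 13.1 ± 0.851 CPM in WT (log2 −1.1, SE 0.134, edgeR adjusted p 3.62e-06, and 0.672 with 9 libraries). In both genes every kdm4aa library lay below every WT library. In the kdm4ab knockout CACNA2D1 was called higher with 8 libraries (log2 0.72, edgeR adjusted p 0.000425). This CACNA2D3 was not called there (log2 0.17, edgeR adjusted p 0.553). The ubiquitin ligase family TRIM35 was split, with 9 of 15 relatives of trim35-34 lower and 3 higher, and 3 lower and 1 higher with 9 libraries. In it trim35-7 averaged 32.4 CPM in the kdm4aa knockout, against 72.9 CPM in WT (log2 −1.1, edgeR adjusted p 1.13e-06), while trim35-29 averaged 69.7 CPM in the kdm4aa knockout, against 37.1 CPM in WT (log2 0.97, edgeR adjusted p 2.86e-07). Both of these calls held with 9 libraries. Members of such multigene families share sequence, so their reads may have been split between copies.

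For several lost genes a close relative moved the other way in the 8-library fit. The share of relatives called higher, 23 of 104 (22.1%), was close to the 23.3% of all genes, so these cases are examples only. The other gene named FRMD5 (ENSDARG00000075942) had 8.47, 7.98 and 7.96 CPM in the kdm4aa knockout and 1.87, 2.67 and 2.23 CPM in WT (log2 1.92, SE 0.191, edgeR adjusted p 3.40e-07, and 0.368 with 9 libraries). A second NCAM2 (ENSDARG00000098523) averaged 7.85 ± 1.1 CPM in the kdm4aa knockout, against 4.64 ± 0.546 CPM in WT (log2 0.82, edgeR adjusted p 0.000600, and 0.434 with 9 libraries). KIRREL3 on chromosome 10 (ENSDARG00000075806) averaged 18.4 ± 1.96 CPM in the kdm4aa knockout, against 6.52 ± 0.567 CPM in WT (log2 1.56, edgeR adjusted p 2.08e-08, and 0.0980 with 9 libraries). For each of these 3 all kdm4aa libraries were above all of WT, while the namesake among the 54 was nearly absent. KIRREL3 on chromosome 10 and the second NCAM2 were also called higher in the kdm4ab knockout with 8 libraries. The differences there were log2 2.59 (edgeR adjusted p 8.12e-11) and log2 0.79 (edgeR adjusted p 0.00171). The other FRMD5 was not called there (log2 0.40, edgeR adjusted p 0.132). Another KIRREL3 (ENSDARG00000115903), beside the lost one on chromosome 18, averaged 0.264 CPM in the kdm4aa knockout, against 1.62 CPM in WT (log2 −2.57, edgeR adjusted p 0.00221, and 0.314 with 9 libraries).

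Other relatives fell with the lost gene. The photoreceptor synapse gene LRIT3 (ENSDARG00000055463) averaged 9.68 ± 1.51 CPM in the kdm4aa knockout, against 37.9 ± 2.49 CPM in WT (log2 −1.91, SE 0.111, edgeR adjusted p 3.42e-10). A second ADGRL3 (ENSDARG00000090624) averaged 6.92 ± 1.72 CPM in the kdm4aa knockout, against 18.8 ± 1.85 CPM in WT (log2 −1.38, SE 0.153, edgeR adjusted p 1.12e-06). Both calls held with 9 libraries, at adjusted p 0.0119 for LRIT3 and 0.0476 for ADGRL3. In the kdm4ab knockout LRIT3 was called higher with 8 libraries (log2 1.30, edgeR adjusted p 4.88e-08). This ADGRL3 was not called there (log2 0.19, edgeR adjusted p 0.337). Most latrophilins did not fall in the kdm4aa knockout: of the 5 tested relatives 1 was called lower and 3 higher, with a median log2 of 1.16. With 9 libraries 1 was called lower and 1 higher. Among those higher, ADGRL4, a latrophilin relative of endothelium, averaged 12.7 CPM in the kdm4aa knockout, against 3.31 CPM in WT (log2 1.99, edgeR adjusted p 4.70e-07). The presynaptic scaffold gene rims2b, a relative of RIMS1, averaged 1.19 ± 0.404 CPM in the kdm4aa knockout, against 4.07 ± 0.797 CPM in WT (log2 −1.72, edgeR adjusted p 7.82e-05, and 0.0274 with 9 libraries). The Rab gene RAB27A averaged 16.3 CPM in the kdm4aa knockout, against 25.9 CPM in WT (log2 −0.61, edgeR adjusted p 0.000436, and 0.533 with 9 libraries). Neither was called in the kdm4ab knockout with 8 libraries (rims2b log2 −0.58, edgeR adjusted p 0.116; RAB27A log2 0.10, edgeR adjusted p 0.553).

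Of the 3 tested KDM6 relatives of kdm6bb, 1 was called higher and 1 lower, and neither with 9 libraries. KDM6B had 393, 426 and 462 CPM in the kdm4aa knockout and 364, 377 and 391 CPM in WT (log2 0.24, SE 0.0784, edgeR adjusted p 0.0175). That call did not hold without WT replicate 1 (adjusted p 0.0532), WT replicate 2 (0.0563) or kdm4aa replicate 3 (0.0998), nor with 9 libraries (0.795). KDM6A, of the same demethylase family, had 19.1, 23.6 and 19.7 CPM in the kdm4aa knockout and 30.8, 35.1 and 31.3 CPM in WT (log2 −0.58, SE 0.106, edgeR adjusted p 0.000254, and 0.537 with 9 libraries). For kdm6al the difference was log2 0.12 (edgeR adjusted p 0.410).

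Of the 6 tested NITR relatives, 2 were called lower and 1 higher. The genes nitr3a and nitr3r.1l, which lie beside nitr3b on chromosome 7, had no count in the kdm4aa knockout and averaged 0.186 and 0.363 CPM in WT (edgeR adjusted p 0.00858 and 0.00483). In the fit of 9 libraries nitr3a was not called (adjusted p 0.193), and nitr3r.1l was not tested there. The gene nitr12 averaged 1.34 CPM in the kdm4aa knockout, against 0.333 CPM in WT (log2 2.05, edgeR adjusted p 0.00523, and 0.299 with 9 libraries). These levels are low, and near-identical NITR copies may share reads.

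**Figure D3:**
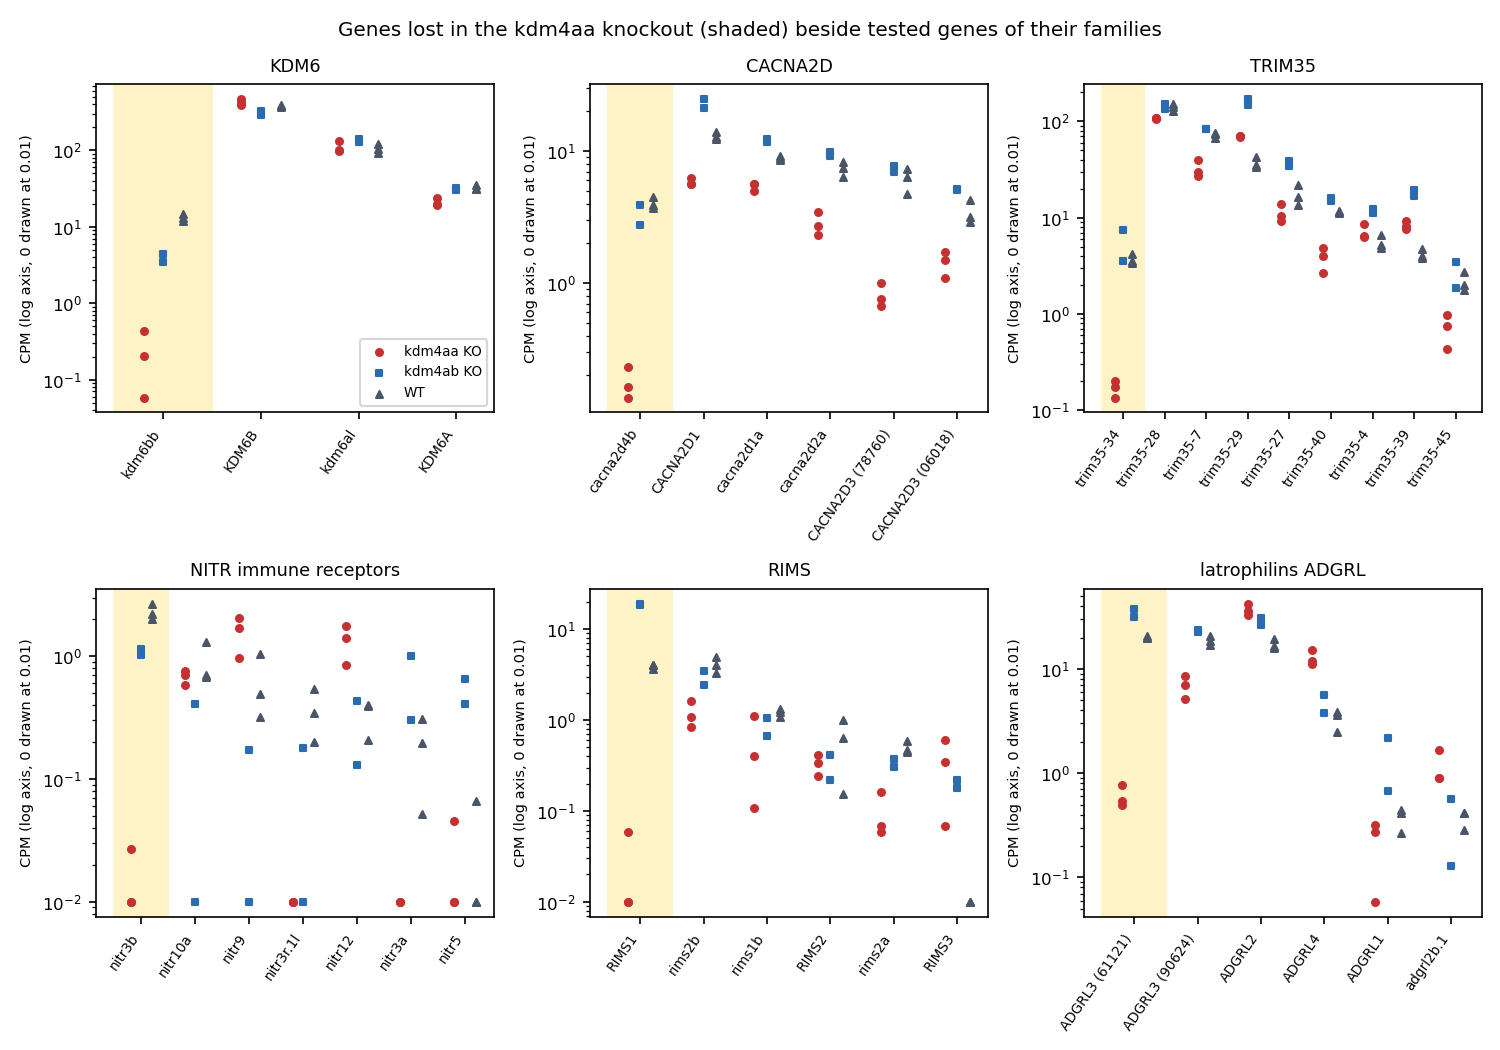
Panels for 6 families (KDM6, CACNA2D, TRIM35, NITR, RIMS and ADGRL) with the CPM of each library (log axis, libraries with no count at the foot) for the lost gene, shaded, and for up to 8 other tested genes of the family with the highest WT mean. The kdm4ab knockout is shown by replicates 1 and 3. In the CACNA2D panel the kdm4aa points lie below WT for every gene, and in the ADGRL and TRIM35 panels they lie on both sides.

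The lost genes were spread over the genome. Of the 54, 52 could be given a chromosome from the order of the counted genes and the gene table of the assembly GRCz12tu, and they fell on 21 of 25 chromosomes. Chromosome 7 held 7 of them (13.0%, against 5.15% of the 13988 genes with at least 1 CPM in WT), chromosome 10 held 6 (11.1%, against 3.45%) and chromosome 9 held 4 (7.41%, against 3.50%). Chromosomes 2, 4, 16 and 19 held none. On chromosome 6, which carries kdm4aa, were nfil3-3, MLPH and OCA2, with 86, 256 and 589 counted genes between each and kdm4aa. These shares are a description.

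Runs of neighbouring lost genes were rare. With at most 3 counted genes between neighbours there was a single run, made of the adjacent genes si:ch211-186j3.5 and si:ch211-186j3.6 on chromosome 7. The first had 0, 0 and 0 CPM in kdm4aa knockout embryos, 18.7, 38.0 and 15.2 CPM in the kdm4ab knockout and 3.53, 2.91 and 3.60 CPM in WT. The second had 0.0543, 0 and 0.0226 CPM in kdm4aa knockout embryos, 5.59, 0 and 3.30 CPM in the kdm4ab knockout and 1.21, 1.12 and 1.46 CPM in WT. Both were above WT in replicates 1 and 3 of the kdm4ab knockout. Whether they share reads was not tested. Allowing 10 genes between neighbours added FRMD5 and SEMA4B on chromosome 7, for 4 genes in runs. FRMD5 and SEMA4B had 4 counted genes between them, just past the limit of 3. By the 3-gene limit, 4 of the 64 genes lost in the kdm4ab knockout and kept in the kdm4aa knockout lay in runs, and none of the 25 lost in both did.

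Genes beside the lost ones were called lower or higher at close to the background share. Called falls of 4-fold or more made up a higher share than over all genes, a comparison not matched for level. Within 3 tested genes on either side lay 307 tested genes that are not among the 54. Of these, 80 (26.1%) were called lower in the kdm4aa knockout and 78 (25.4%) higher by edgeR's quasi-likelihood test, beside 23.5% and 23.3% of all genes tested. Their median log2 difference was −0.01. Falls of 4-fold or more were called for 27 (8.79%), beside 5.41% of all genes. Among the 102 tested genes counted as next to a lost gene the share of such falls was 11.8%. These shares were not tested against each other. Most of the neighbours with such a fall had a WT mean under 5 CPM, whereas the share over all genes covers every level. Some are relatives of the lost gene beside them and may share its reads, among them nitr3a, nitr3r.1l, trim35-33 and a KIRREL3 (ENSDARG00000115903). With 9 libraries 15 of the 287 neighbours tested (5.23%) were called lower, beside 4.55% of all genes.

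Single neighbours nevertheless differed strongly, in both directions. ITGB6, an integrin subunit of epithelia beside MYOM2, had 22.5, 23.4 and 21.9 CPM in kdm4aa knockout embryos, 0.823, 0 and 0.666 CPM in the kdm4ab knockout and 0.419, 0.467 and 0.706 CPM in WT (log2 5.45, SE 0.196, edgeR adjusted p 1.10e-12). B3GLCT, a glucosyltransferase beside the abundant RXFP2, had 14.1, 17.1 and 16.2 CPM in kdm4aa knockout embryos, 0.173, 0 and 0 CPM in the kdm4ab knockout and 0, 0 and 0.0442 CPM in WT (edgeR adjusted p 2.84e-11). Both rose in the kdm4aa knockout and stayed under 1 CPM in all other libraries, beside a gene that was low in the kdm4aa knockout and high in WT. IAH1, an esterase beside ASAP2, averaged 26.3 ± 3.55 CPM in the kdm4aa knockout, against 3.98 ± 0.185 CPM in WT (log2 2.79, SE 0.150, edgeR adjusted p 1.31e-10). APP, the amyloid precursor gene beside NCAM2, averaged 41.3 ± 0.724 CPM in the kdm4aa knockout, against 9.84 ± 1.30 CPM in WT (log2 2.14, edgeR adjusted p 1.02e-10), and 41.4 CPM in kdm4ab replicates 1 and 3. CPEB1, a translational regulator beside si:ch211-186j3.6, averaged 133 CPM in the kdm4aa knockout, against 52.1 CPM in WT (log2 1.43, edgeR adjusted p 9.92e-09). In kdm4ab replicates 1 and 3 CPEB1 averaged 108 CPM (log2 0.95 against WT, edgeR adjusted p 3.37e-06). IAH1 averaged 5.81 CPM in those libraries (log2 0.44, edgeR adjusted p 0.0357).

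Among the neighbours that fell, fam131ab lies beside LRFN1 and has a symbol stem in common with FAM131C. It had 4.43, 4.46 and 3.78 CPM in kdm4aa knockout embryos, 4.74, 12.7 and 5.02 CPM in the kdm4ab knockout and 38.9, 44.3 and 42.1 CPM in WT (log2 −3.25, SE 0.125, edgeR adjusted p 2.17e-12), so it was low in both knockouts. PGLS, an enzyme of the pentose phosphate pathway beside gmip, averaged 1.59 ± 0.408 CPM in the kdm4aa knockout, against 13.2 ± 3.75 CPM in WT (log2 −2.98, SE 0.226, edgeR adjusted p 1.15e-08). The signalling GTPase gene kras, beside znf469, averaged 9.81 ± 0.560 CPM in the kdm4aa knockout, against 34.7 ± 3.15 CPM in WT (log2 −1.76, edgeR adjusted p 1.79e-09). Beside SEMA4B, polr2m, which encodes a protein of RNA polymerase II, averaged 21.5 CPM in the kdm4aa knockout, against 69.8 CPM in WT (log2 −1.63, edgeR adjusted p 1.34e-09). Beside si:dkey-25o1.7, the Eph receptor gene ek1 averaged 18.9 CPM in the kdm4aa knockout, against 49.7 CPM in WT (log2 −1.33, edgeR adjusted p 7.32e-09). In kdm4ab replicates 1 and 3 polr2m was low too, at 29.7 CPM (log2 −1.33 against WT, edgeR adjusted p 7.25e-08). There kras was also called lower (log2 −0.43, edgeR adjusted p 0.00791). PGLS (log2 0.95, edgeR adjusted p 0.00106) and ek1 (log2 0.59, edgeR adjusted p 0.000157) were called higher in the kdm4ab knockout. These 10 neighbours had the smallest adjusted p for the kdm4aa knockout, and all 10 were also called in it with 9 libraries.

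**Figure D4:**
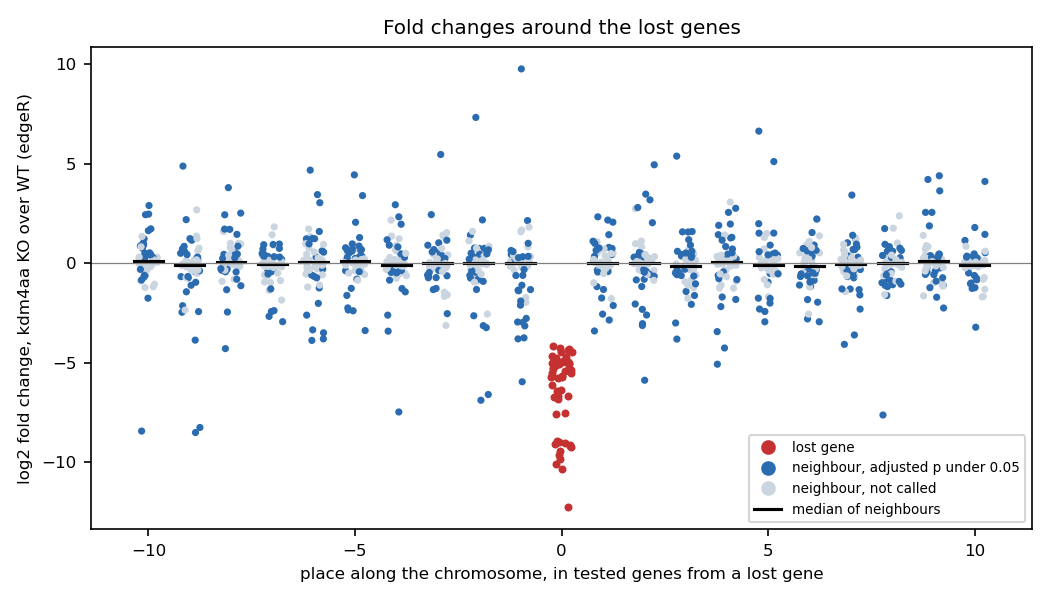
Log2 difference of the kdm4aa knockout from WT for tested genes that are not among the 54, by their place before or after a lost gene (up to 10 tested genes on either side). Points are genes, blue where called and grey where not, the black line is the median at each place, and the lost genes are red at place 0. The median stays near 0 at every place, with single genes far above and below.

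The limits of the choice cut through a continuum. Just inside the 1/16 limit, the highest kdm4aa library held 6.04% of the WT mean for SEMA4B, 6.08% for si:dkey-72l17.1 and 6.15% for ASAP2. Just outside it lay CCS at 6.30%, KREMEN1 at 6.46% and SYCP3 at 6.47%, and 70 genes lay between 1/16 and 1/8. At the kdm4ab limit, CHRNA2 at 27.2% and kdm6bb at 25.6% of the WT mean in the lower of replicates 1 and 3 were kept, and THSD7A at 24.7% and zgc:195170 at 23.4% were not.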

How the data were processed

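The authors deposited 1 table of whole-number read counts per Ensembl gene for 9 libraries, not normalized. Per the labels' protocols, libraries were made from poly-A RNA by random priming for Illumina sequencing, and the submitters' processing notes name GRCz11 and danRer11. Which aligner, counter, annotation release and strand setting were used is not given in the sources used here, so how reads of near-identical copies, overlapping genes and antisense genes were shared out is unknown. Groups and replicate numbers came from the sample titles.

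CPM here is a gene's count over its library's total times 1000000, with no other scaling, and levels were not set against gene length. Tests used edgeR 4.0.16 in R 4.3.3 (filterByExpr, TMM, quasi-likelihood F-test, 1 mean per group, two-sided, Benjamini-Hochberg over all 19882 genes tested, called under 0.05). The fit used 8 libraries without kdm4ab knockout replicate 2, since the biological coefficient of variation was 13.1% without it and 47.5% with it. Standard errors are the absolute log2 value over the square root of F. On simulated counts for the kdm4aa comparison (19882 genes), 79.1% of 2-fold, 85.1% of 4-fold and 100% of 16-fold changes were recovered, with 9 false calls. The changes were planted in 67, 67 and 66 genes, far fewer than were called in the data. None of these genes had a low mean count, so recovery among low-count genes was not measured. Alternatives used DESeq2 1.42.0 and the settings of the closing section.

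Symbols came from a table covering 29201 of 32520 identifiers. Chromosomes came from RefSeq's GRCz12tu table, matched by symbol and kept where the 20 rows on each side pointed to the same chromosome; 33 of the 54 genes were placed by symbol and others by the rows around them. No coordinates are given, because the builds differ. A neighbour is 1 of 3 tested genes on either side of a lost gene. For the 33 lost genes placed by symbol, only genes also placed by symbol were counted. Other tested genes may therefore lie between such a gene and its named neighbour. Genes between the members of a run were counted in the same way. Folds of genes with no kdm4aa count use a floor of 3 counts per library, and ratios with 1 to 3 counts have exact (Clopper-Pearson) 95% intervals. Both cover counting error only, since the labels name no molecular identifiers. Replicates differed beyond sampling noise (chi-square per gene 9.58 or more), so none were counted as 1 sample.

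The genes named were the 20 most abundant with an informative symbol, runs, families with 2 lost genes, the 3 genes on each side of the 1/16 limit, the 10 neighbours with the smallest adjusted p, up to 4 relatives per family by smallest p, kdm4aa and kdm4ab. Only some of the relatives chosen in this way are given above, and they were picked with their values known. Other members were named after their values were seen. The members, families, roles and markers were chosen with earlier results of these data known.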

Additional observations from a re-analysis of the deposited data

How the results depend on the processing

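The 54 genes became 124 with a kdm4aa limit of 1/8, 24 with a limit of 1/32 and 34 when kdm4ab knockout replicate 2 had to exceed 1/4 too. Leaving out 1 library gave 55 to 69 genes, of which 51 to 54 were among the 54, and the other 4 settings gave 40 to 64. The 2 genes in runs became 4 with at most 10 genes between neighbours. The 80 neighbours called lower became 28 with a flank of 1 gene (27.5% of 102, with falls of 4-fold or more at 11.8%), 237 with a flank of 10 (23.7% of 999) and 15 with all 9 libraries (of 287 tested), and ran from 69 to 77 without 1 library. The 54 lost genes called lower in the kdm4aa knockout stayed at 54 without any 1 library and were 43 with all 9. Over all genes 40.3% to 43.7% were called in either direction without 1 library and 8.88% with all 9. The 30 called in the kdm4ab knockout were 5 with all 9 libraries and 21 to 27 without 1 library. Over all genes 17.0% were called in the kdm4ab knockout with all 9 and 37.1% to 48.0% without 1 library.

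Same-numbered libraries did not deviate together over all genes (correlations of −0.0262 to 0.0455 between groups), so the samples were not paired by number. With 2 kdm4ab libraries in the fit, their deviations mirror each other. Whether same-numbered libraries shared a clutch or batch was not tested. With the replicate number as a block, 79 neighbours were called lower. In that fit 54 lost genes were called in the kdm4aa knockout and 23 in the kdm4ab knockout, beside 45.9% and 47.4% of all genes. DESeq2 gave 79, 54 and 29, with 33.9% and 35.7% of all genes called in the kdm4aa and kdm4ab knockouts. Over all genes, 9306 of 19882 were called for the kdm4aa knockout with 8 libraries and 1687 of 18998 with 9. Of the values of named genes under the alternatives, 1276 kept their direction and call, 65 lost the call (44 of them with all 9 libraries), 14 gained it and 0 changed direction. The lost genes among them were chosen by this contrast, and relatives and neighbours by smallest p in the same fit. The tally is therefore a description and no measure of how firm calls are in general. Depth limits the lowest genes: for those with no kdm4aa count the fall is bounded at 19.6-fold for si:ch211-145m1.3 and up to 191-fold for FAM131C.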
